A study of Mus musculus with 8 samples.

Results

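Accessible chromatin at places where 2 or more protein-coding genes meet was compared between early and late tumours. The cells were type 1 conventional dendritic cells (cDC1s), which take up tumour antigen and present it to CD8 T cells. They were sorted from tumours of B16-OVA, a mouse melanoma line that expresses the model antigen ovalbumin, grown in wild-type mice. Assay for transposase-accessible chromatin with sequencing (ATAC-seq) counts the adapters that a transposase inserts into open DNA. 4 libraries were made at day 7 after tumour inoculation and 4 at day 21, with no other treatment in the labels. A region was included when it overlapped, for at least 2 different genes, the 500 bp on either side of an annotated gene start or gene end on mm10. This rule took 1715 of 128057 regions, 1686 of them at 2 genes and 29 at 3, in 1651 gene combinations that covered 3156 genes. The comparison set was the 12179 regions at the start or end of exactly 1 gene, called single-end regions here.

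Many mammalian genes stand head to head with a neighbour on the opposite strand, and the short stretch between the starts then serves as a bidirectional promoter. Such promoters are typically CpG-rich, lack a TATA box and often serve housekeeping genes of DNA repair, mitochondria and RNA processing. Motifs for the factors NFY (the CCAAT box), NRF1, ETS proteins, YY1 and the SP and KLF family are common in them. Genes can also meet tail to head, so that a region covers the end of one transcript and the start of the next, or tail to tail. Because both genes lie in the same open region, a change in accessibility there cannot be assigned to either of them.

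Transcribed strand was known for 2607 of the 3156 genes, from RefSeq promoter sequences (GRCm38.p6, the assembly of mm10). The largest class was head to head, with 856 regions that held the starts of genes on opposite strands. A further 25 held starts of genes on the same strand, 298 a start and an end, and 79 ends only, while 457 had at least 1 gene of unknown strand. In the 854 head-to-head regions with enough counts to be tested, the median distance between the starts was 37 bp, and in 319 of them the annotated starts overlapped. The sequences below are the bases between the starts of 8 head-to-head pairs. Of their regions, 6 were lower at day 21, 1 was higher (Rbak/Spdye4b) and 1 passed no threshold (Psmb9/Tap1). The sequences are shown because they are the DNA that both genes of a pair share. All are plus-strand RefSeq sequences of GRCm38.p6, and each lies wholly inside its ATAC-seq region. Capitals mark matches on either strand to CCAAT (NFY), GGGCGG (SP and KLF), GCATGCGC (NRF1), CCGGAAGT (ETS) or GAANNTTC (heat shock factor core).

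Cdr2/Mfsd13b, chr7:120982313-120982441: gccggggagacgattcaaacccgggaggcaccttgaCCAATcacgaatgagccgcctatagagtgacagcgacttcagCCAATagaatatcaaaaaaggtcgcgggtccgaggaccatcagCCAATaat
Tcf19/Cchcr1, chr17:35516838-35517048: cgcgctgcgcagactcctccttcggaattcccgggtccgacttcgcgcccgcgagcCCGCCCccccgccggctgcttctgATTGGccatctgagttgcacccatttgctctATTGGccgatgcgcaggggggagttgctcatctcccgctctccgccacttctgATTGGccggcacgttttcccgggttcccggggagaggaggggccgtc
Recql/Golt1b, chr6:142387101-142387210: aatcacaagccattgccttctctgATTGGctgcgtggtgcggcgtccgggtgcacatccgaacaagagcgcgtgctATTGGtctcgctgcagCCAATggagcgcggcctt
Mrps12/Sars2, chr7:28741822-28741956: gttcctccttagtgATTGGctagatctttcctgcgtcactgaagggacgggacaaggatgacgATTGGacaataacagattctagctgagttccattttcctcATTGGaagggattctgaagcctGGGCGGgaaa
Vmac/Ndufa11, chr17:56717700-56717761: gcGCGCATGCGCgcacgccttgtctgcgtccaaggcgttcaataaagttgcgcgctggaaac
Ifit1bl2/Ifit1, chr19:34640828-34640888: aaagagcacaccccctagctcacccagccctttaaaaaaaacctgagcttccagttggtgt
Rbak/Spdye4b, chr5:143180776-143181016: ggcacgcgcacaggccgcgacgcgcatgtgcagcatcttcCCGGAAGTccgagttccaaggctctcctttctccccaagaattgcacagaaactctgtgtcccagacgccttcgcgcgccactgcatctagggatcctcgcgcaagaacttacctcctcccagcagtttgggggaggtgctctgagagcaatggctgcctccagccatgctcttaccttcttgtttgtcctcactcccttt
Psmb9/Tap1, chr17:34187331-34187555: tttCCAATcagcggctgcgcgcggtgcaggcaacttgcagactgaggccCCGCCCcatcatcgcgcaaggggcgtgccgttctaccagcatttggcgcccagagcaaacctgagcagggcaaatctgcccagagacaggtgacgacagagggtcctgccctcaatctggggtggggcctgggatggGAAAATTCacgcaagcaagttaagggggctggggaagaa

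CCAAT boxes occurred 3 times each between Cdr2 and Mfsd13b, Tcf19 and Cchcr1, Recql and Golt1b, and Mrps12 and Sars2. The stretch between Vmac and Ndufa11 held overlapping NRF1 matches on both strands. No searched motif was found between Ifit1bl2 and Ifit1, which held 0 CpG dinucleotides in 61 bases. The CCAAT box was as frequent in stretches whose region fell as in those whose region passed no threshold. This was counted over 277 pairs whose starts lay 50 to 250 bases apart and whose stretch a RefSeq promoter covered. The region fell at 91 of these stretches and passed no threshold at 183. 2 or more CCAAT boxes stood in 19 of the 91 (20.9%) and in 37 of the 183 (20.2%). NRF1 matches stood in 8 of the 91 (8.79%) and in 7 of the 183 (3.83%). These are matches of letters, not measured binding.

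In whole promoters (250 bases before to 50 after a start), those at shared starts were richer in CpG, with a median of 23.5 per 300 bases in the 881 shared-start regions. The median was 20 at 8199 single starts and 13 over all 17492 RefSeq promoters. The ETS motif was in 13.1% of the 1709 shared-start promoters, in 6.91% of the 7627 promoters at single starts and in 5.28% of all promoters. The TATA box (TATAAA) was in 4.45%, 7.96% and 13.3% in the same order, and the AP-1 motif (TGANTCA) in 3.39%, 5.22% and 7.03%. NRF1 matches were in 9.6% of the 531 promoters of shared starts that fell and in 4.33% of the 1154 that passed no threshold. The ETS motif was in 10.9% and 14% of them. YY1 cores (AAGATGG) were in 10.9% and 8.84%, and the SP and KLF box was in 67% and 65.1%. The promoters of a pair overlap, so 1 motif can be counted for both genes, and no test was made of these shares.

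Library depth ran from 9440223 to 16063736 counts in regions at day 7 and from 14021151 to 27737040 at day 21. Whether each library had its own mouse is not stated in the labels, and the p values therefore rest on library-to-library spread, which may be technical. Regions were found at 14 of 16 cDC1 genes (none at Itgae or Xcr1), and their summed level was 513.8 to 539.0 CPM (the count scaled to the size of its library) at day 7 and 503.2 to 546.6 at day 21. Regions at macrophage and monocyte genes (15 of 17, none at Ccr2 or Trem2) summed to 156.2 to 170.1 CPM at day 7 and 171.3 to 201.8 at day 21. Those at T and NK cell genes (18 of 21, none at Gzma, Lck or Ncr1) summed to 134.0 to 151.0 and 121.3 to 134.1 CPM. Stroma and endothelium genes (6 of 12) summed to 25.7 to 30.8 and 18.7 to 24.7 CPM, and plasmacytoid dendritic cell genes (2 of 7) to 44.7 to 46.4 and 41.4 to 43 CPM. The days did not overlap for the macrophage, stromal and plasmacytoid lists (exact permutation p = 0.0286 each, unadjusted). They overlapped for T and NK cell genes (exact permutation p = 0.0571) and for melanoma (185.5 to 198.5 and 189.1 to 199.1 CPM), B cell (17.5 to 23.1 and 16 to 18.6 CPM) and neutrophil genes (9.1 to 9.91 and 9.17 to 11.1 CPM). In such bulk libraries a changed share of another cell type and a changed accessibility in the cDC1s cannot be told apart, and the part of other cell types in the results below was not tested.

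Regions at shared gene ends lost accessibility more often than they gained it. Of 1706 tested, 429 were lower at day 21 (25.1%) and 62 were higher (3.63%) by edgeR's quasi-likelihood test with Benjamini-Hochberg adjustment over all regions at a threshold of 0.05. Over all 121865 tested regions, 9.86% were lower, 9.50% higher and 19.4% called in either direction. In 497 shared-end regions (29.1%), against 19.8% of all regions, the 2 days had no overlapping libraries. The changes were small. The median log2 fold change (day 21 against day 7) was -0.11, against 0.002 over all regions, and only 4 regions rose and 4 fell by 2-fold or more.

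Much of this excess of losses was also seen at single ends of like accessibility. Single-end regions were 18.5% lower and 6.06% higher, but their median level was 14.7 CPM against 31.1 CPM at shared ends. When single-end regions were weighted to the CPM distribution of the shared ends, 23.6% were lower and 5.54% higher, with a median log2 fold change of -0.089. In each library, the mean log2 CPM of shared ends minus that of single ends of like CPM was taken as 1 value. It was 0.009 ± 0.010 at day 7 and -0.002 ± 0.011 at day 21 (SD, n = 4 each), a difference of -0.011 that did not pass an exact two-sided permutation test (p = 0.171, adjusted 0.171 over 3 library measures). The libraries of the days overlapped.

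Starts shared by 2 genes did fall slightly further than starts of 1 gene. The same measure restricted to starts was 0.005, 0.026, 0.010 and 0.014 in day 7 replicates 1 to 4 and -0.015, -0.004, 0.002 and -0.010 at day 21. Every day 7 library was above every day 21 library. The difference was -0.020 (exact two-sided permutation p = 0.0286, the smallest that 70 relabelings allow, adjusted 0.0429), so that relative accessibility fell by 1.41%. In the counts, 30.1% of 879 shared starts were lower and 2.62% higher, against 26.7% and 4.19% of single starts of like CPM. With windows of 1000 bp in place of 500 bp the difference was -0.006 (exact permutation p = 0.429), and with libraries thinned to 1 depth it was -0.019 (p = 0.0571).

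Shared-end regions also held a smaller share of each library. Their share of all counts in regions was 6.31%, 6.64%, 6.45% and 6.44% in the day 7 libraries and 5.90%, 6.05%, 6.06% and 5.89% in the day 21 libraries. The ranges did not overlap. The means were 6.46% ± 0.137 and 5.98% ± 0.0958 (SD, n = 4 each), a difference of -0.484 percentage points (exact two-sided permutation p = 0.0286, adjusted 0.0429). As a percent of the counts at any gene end, the difference was -0.176 points and did not pass (exact permutation p = 0.0857).

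**Figure D1:**
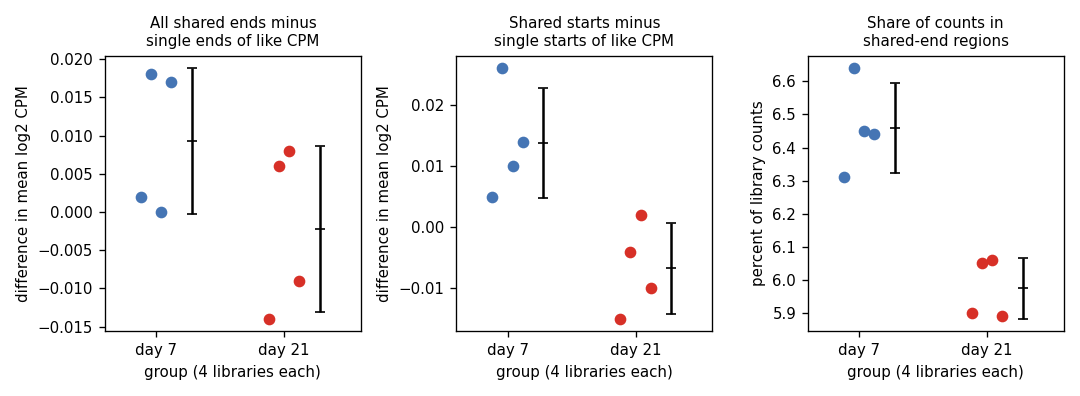
Each point is 1 library, by day on the x axis, with the mean and SD of 4 libraries beside it. The y axes give the mean log2 CPM of shared ends minus single ends of like CPM (left), the same for starts only (middle) and the percent of library counts in shared-end regions (right), and the days overlap only in the left panel.

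Calls of a loss were most frequent at well-accessible regions of either kind. In the lowest of 5 equal classes of shared ends by mean CPM (up to 12.3 CPM), 7.6% were lower and 5.85% higher. In the 3 upper classes 32.3%, 34.6% and 31.4% were lower, while 1.76%, 2.35% and 2.05% were higher. Single-end regions in the same CPM classes were lower in 28.4%, 29.4% and 30.5% and higher in 5.66%, 3.84% and 2.91%. The share called also depends on the counts, since a small change passes more easily where counts are high. Median log2 fold changes of shared ends were -0.008 in the lowest class and -0.13, -0.16 and -0.12 in the 3 upper ones. At single ends they were -0.006 and -0.12, -0.12 and -0.11.

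**Figure D2:**
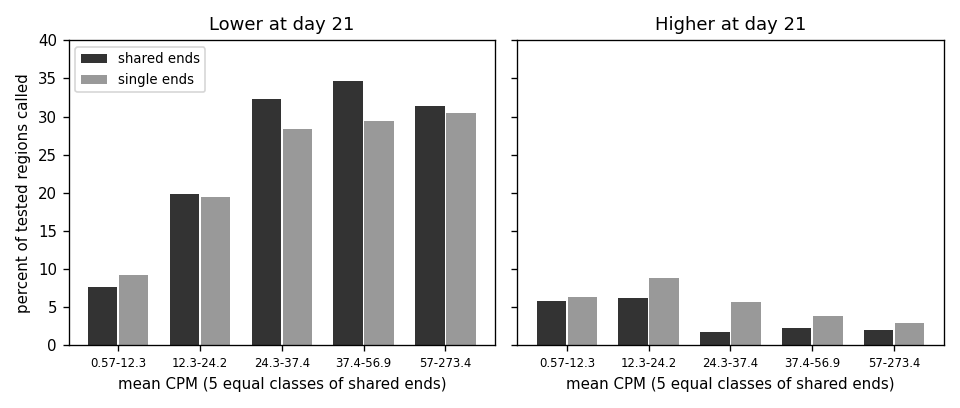
Bars give the percent of tested regions called lower (left) or higher (right) at day 21, by mean CPM in 5 equal classes of the shared-end regions, for shared ends (dark) and single ends (grey). In the class from 37.4 to 56.9 CPM 34.6% of shared and 29.4% of single ends were lower.

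Calls in each direction were also counted by how the genes met. Among head-to-head regions 255 of 854 fell (29.9%) and 22 rose (2.58%), with a median log2 fold change of -0.13. Among regions with a start and an end, 64 of 295 fell (21.7%; 36 without day 21 replicate 4) and 15 rose (5.08%). Of the tail-to-tail regions 8 of 76 rose (10.5%) and 2 fell (2.63%; 1 to 3 when a single library was left out). The share that rose was near the 9.50% of all regions and below the 13.2% at single ends of like CPM, of which 6.49% fell. Their median of 0.018 had no stable sign, with -0.013 without day 21 replicate 3, -0.002 without day 7 replicate 1 and 0.034 without day 21 replicate 1. At the end of a single gene 171 of 1415 regions were higher (12.1%) and 94 lower (6.64%). Tail-to-tail regions were weakly accessible, with a median of 4.28 CPM against 38.5 CPM at head-to-head regions, and no test was made of the difference between arrangements.

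**Figure D3:**
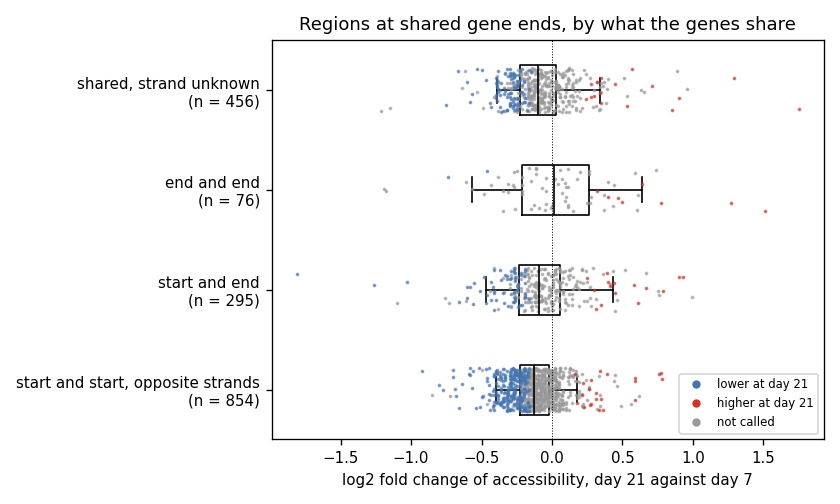
Each point is 1 tested region, placed by its log2 fold change (x axis) and by how its genes meet (y axis), and boxes give the median and quartiles with whiskers from the 5th to the 95th percentile. Head-to-head regions had a median of -0.13 and tail-to-tail regions of 0.018.

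By the distance between starts, the share of head-to-head regions that fell was 26.3% where starts overlapped, 29.6% at 1 to 100 bp, 36.3% up to 200 bp, 35.3% up to 400 bp and 25% beyond. The median log2 fold change was -0.13 in the 319 regions with overlapping starts, -0.12 in the 277 with starts 1 to 100 bp apart, -0.16 in the 124 over 100 and up to 200 bp apart -0.12 in the 102 over 200 and up to 400 bp apart and -0.10 in the 32 beyond. These differences were not tested. Of the 22 head-to-head regions that rose, 16 had overlapping starts.

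The gain with the smallest p lay where Cd74, the invariant chain that guides MHC class II molecules to peptide-loading compartments, meets Tcof1, a nucleolar factor of ribosomal RNA synthesis (chr18:60811156-60814308). It stood at 90.1, 89.9, 77.7 and 87.0 CPM at day 7 and at 252.6, 331.3, 312.7 and 260.1 CPM at day 21. The days were far apart, with a log2 fold change of 1.75 ± 0.06 (SE) and an adjusted p of 6.81e-35 in edgeR. With a mean of 86.2 ± 5.86 at day 7 and 289.2 ± 38.8 at day 21 (SD, n = 4 each), it was also among the 5 most accessible shared-end regions.

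Several of the next gains lay at the transcript ends of chaperone, histone and RNA-processing genes. A region that covers the end of H2az1, a histone H2A variant, and the start of Dnajb14, a co-chaperone of the endoplasmic reticulum (chr3:137867302-137868222), had the next smallest p. It was 29.8, 31.1, 40.1 and 41.1 CPM at day 7 and 64.6, 73.9, 72.4 and 61.7 CPM at day 21, without overlap (log2 fold change 0.93 ± 0.08, adjusted p = 9.80e-15, edgeR). The end of Dnaja1, an HSP40 co-chaperone, near Smu1, a splicing factor (chr4:40735143-40736378), rose from 14.9 ± 1.51 to 26.6 ± 4.28 CPM (log2 fold change 0.85). The day 7 libraries lay between 13.8 and 17.2 CPM and the day 21 libraries between 22.1 and 30.2.

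Splicing genes gave further gains at their ends. Where the end of Ddx5, an RNA helicase, meets the start of Polg2, the accessory subunit of the mitochondrial DNA polymerase (chr11:106778708-106780245), values were 62.9, 62.3, 54.5 and 59.6 CPM at day 7. They were 84.2, 98.8, 91.5 and 83.8 CPM at day 21, all above day 7 (log2 fold change 0.58 ± 0.06, adjusted p = 1.07e-10, edgeR). Tail-to-tail Nfe2l3 and Hnrnpa2b1, the latter an hnRNP of RNA processing (chr6:51458927-51460522), rose from 4.91 to 7.33 CPM over the day 7 libraries to 11.2 to 17.7 at day 21 (log2 fold change 1.27 ± 0.15). The tail-to-tail region of Fth1, the ferritin heavy chain that stores iron, and Best1, a chloride channel (chr19:9985337-9985798), rose from 3.17 ± 1.41 to 8.96 ± 1.79 CPM (log2 fold change 1.51). Slc35b2/Hsp90ab1, at the end of Slc35b2, a Golgi transporter of the sulphate donor, and an end of the chaperone gene Hsp90ab1, rose by 1.29, and there the days overlapped by 1 library, with 2.66 CPM in day 21 replicate 3 against a day 7 maximum of 3.3.

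The start was not called higher at any of 6 genes whose end lay in these regions and that had a region at their start. The Ddx5 start fell (79.5 ± 4.31 to 69.8 ± 4.84 CPM, log2 fold change -0.18, adjusted p = 0.0276, edgeR), and so did the Hnrnpa2b1 start (-0.22, adjusted p = 0.00934). The starts of Dnaja1 and H2az1 each had a log2 fold change of -0.07, and those of Nfe2l3 and Slc35b2 of -0.04 and 0.02, and none of these passed. Over the 31 genes whose transcript end lay in a shared region that rose and that had a region at their start, the start was higher for 6, lower for 9 and not called for 16. For 59 genes whose end lay in a shared region that fell, the start was lower for 23, higher for 2 and not called for 34. For comparison, 30.1% of all tested shared starts and 21% of single starts were lower, and 2.62% and 4.93% were higher. Both genes of a region could be counted, Mllt6 and Nbr1 stood in both sets, and these counts were not tested. The strongest contrast was at Il4i1, a secreted amino acid oxidase of mature dendritic cells, chosen after its values were seen. The region at its end, Il4i1b/Il4i1/Tbc1d17, rose by 0.28 (adjusted p = 0.0429, edgeR). The Il4i1 start fell from 9.91 ± 2.27 to 2.70 ± 0.691 CPM (log2 fold change -1.87). Il4i1b ends in the same region, and its start, in Atf5/Nup62/Il4i1b, went from 65.9 ± 4.14 to 56.5 ± 2.85 CPM (-0.22). The rise at the end cannot be assigned to either gene.

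4 further gains had a gene start in the region, 3 of them head to head. Mmachc, which processes vitamin B12, and Ccdc163 (chr4:116708189-116708800) rose from 32.5 to 39.6 CPM at day 7 to 49 to 60.1 at day 21 (log2 fold change 0.59 ± 0.08). Trp53i13 and Abhd15 (chr11:77514836-77515467) were at 6.91, 6.93, 6.77 and 7.29 CPM at day 7 and at 10.7, 12.8, 13.1 and 11.1 CPM at day 21 (log2 fold change 0.77 ± 0.14). Rbak, a zinc finger repressor that binds the retinoblastoma protein, and Spdye4b (chr5:143180425-143181082) rose from 13.9 ± 0.889 to 21.0 ± 4.12 CPM. No overlap was seen in any of these 3. Cebpg, a bZIP transcription factor of stress responses whose start meets the end of Gm45095 (chr7:35057027-35057473), rose from 16.5 ± 2.17 to 25.1 ± 1.84 CPM (log2 fold change 0.61).

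**Figure D4:**
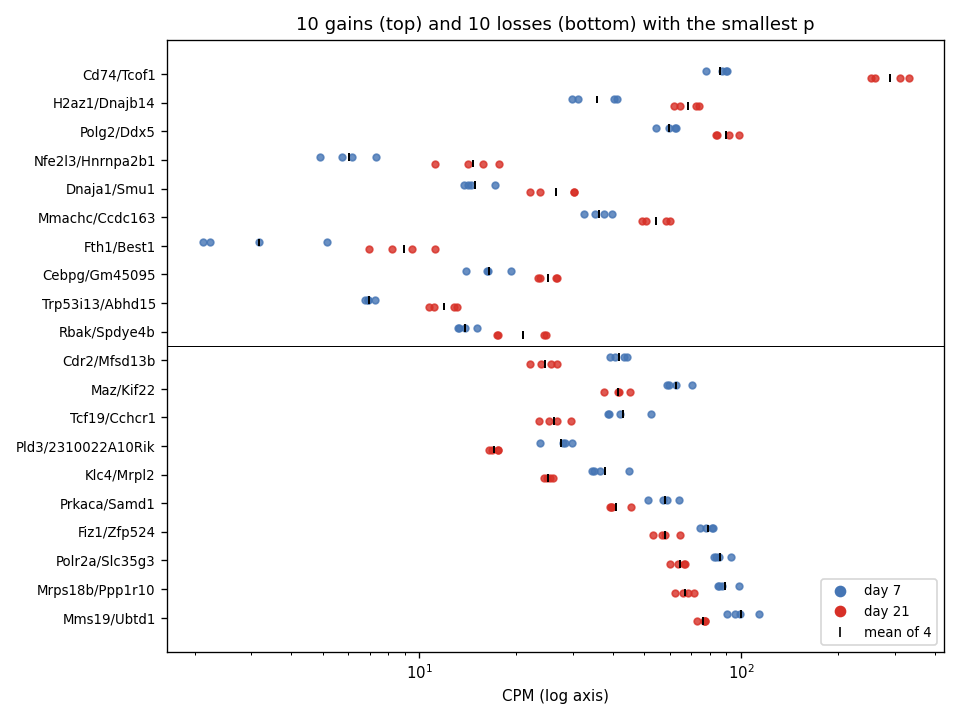
CPM of each library (x axis, log scale) at day 7 and day 21 for the 10 shared-end regions that rose and the 10 that fell with the smallest p, with the mean of 4 libraries as a tick. These 20 were chosen for having no overlap between the days, and Cd74/Tcof1 was furthest apart at 86.2 against 289.2 CPM.

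The loss with the smallest p was head to head. Cdr2, a coiled-coil protein known as an autoantigen, and Mfsd13b share the region chr7:120982041-120982761, which stood at 44.1, 39.2, 43.3 and 40.6 CPM at day 7 and at 26.8, 25.6, 22.1 and 23.8 CPM at day 21. The days did not overlap (log2 fold change -0.77 ± 0.08, adjusted p = 1.84e-11, edgeR). Tcf19, a growth-linked transcription factor, and Cchcr1 (chr17:35516490-35517320) went from 38.7, 52.4, 41.9 and 38.5 CPM to 23.5, 29.5, 26.7 and 25.3 CPM (log2 fold change -0.70 ± 0.09). Both regions lie over stretches with 3 CCAAT boxes shown above.

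The start of Maz, a zinc finger factor of GC-rich promoters, meets the end of Kif22, a mitotic kinesin, in chr7:127026219-127027737. That region fell from 59.5, 70.2, 62.9 and 59.0 CPM to 37.5, 41.8, 45 and 41.3 CPM (log2 fold change -0.60 ± 0.07), and the separate start of Kif22 fell too (16.1 ± 1.52 to 11.6 ± 1.48 CPM, log2 fold change -0.46). Prc1, which bundles the midzone microtubules of dividing cells, and Rccd1 fell by 0.47 on the log2 scale. The start of Polr2a, the largest subunit of RNA polymerase II, with the end of Slc35g3 (chr11:69757846-69759716), fell from 85.8 ± 4.83 to 64.4 ± 3.08 CPM (log2 fold change -0.41 ± 0.06).

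Among the other losses with the smallest p were Klc4/Mrpl2 (a kinesin light chain and a mitochondrial ribosomal protein, log2 fold change -0.57) and Pld3/2310022A10Rik (a lysosomal nuclease, -0.68). Prkaca/Samd1 (the protein kinase A catalytic subunit and a CpG-island-binding protein) had -0.50, and Fiz1/Zfp524 (zinc finger proteins) had -0.44. Mms19/Ubtd1, the former an iron-sulphur cluster assembly factor, went from 99.9 ± 10.0 to 76.0 ± 2.06 CPM (-0.39). In all 10 losses with the smallest p, every day 21 library was below every day 7 library, as the choice of these regions required.

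By fold, the largest losses were at weakly accessible regions. Sdf4/Tnfrsf4, at the start of the costimulatory receptor gene Tnfrsf4 (OX40; chr4:156013650-156014026), fell from 1.67, 1.92, 1.52 and 2.37 CPM to 1.13, 0.241, 0.414 and 0.428 CPM (log2 fold change -1.81 ± 0.43, adjusted p = 0.00116, edgeR). The days did not overlap. Lim2/Nkg7, at the start of Nkg7, a granule protein of cytotoxic T and NK cells, fell from 3.45 ± 0.909 to 1.71 ± 0.389 CPM (-1.03). Nkg7 is one of the T and NK cell genes. Their summed regions, this one included, were at 134.0 to 151.0 CPM at day 7 and at 121.3 to 134.1 CPM at day 21 (exact permutation p = 0.0571). Kif21a/Gm52215 (-1.26), Cers1/Gdf1 (-1.12) and Gm36722/Tshz3 (-0.92) had adjusted p values of 0.0148, 0.0275 and 0.0231. All 3 calls depended on single libraries. Kif21a/Gm52215 did not pass without day 7 replicate 2 (-1.09) or day 21 replicate 3 or 4 (-1.03 and -1.08). Gm36722/Tshz3 did not pass without day 7 replicate 3 (-0.79) or day 21 replicate 2 or 4 (-0.85 and -0.91). Cers1/Gdf1 did not pass without day 7 replicate 2, 3 or 4 (-1.06, -1.13 and -0.82) or day 21 replicate 2 or 4 (-0.98 and -1.0).

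The functions of the genes were described from lists of symbols, and a region was counted where any of its genes was on the list. Respiratory chain genes, which encode the subunits and assembly factors of the mitochondrial electron transport complexes and ATP synthase, had the highest share of losses among the 13 lists with 20 or more tested regions. 22 of their 53 regions fell (41.5%), 0 rose, and the list's median log2 fold change was -0.14. Over all shared ends 25.1% fell, with a median of -0.11. At single ends of respiratory chain genes 19 of 66 fell (28.8%), with a median of -0.16. Those regions were not matched on CPM, and the difference was not tested. Complex I was represented by Vmac/Ndufa11 (64.2 ± 2.26 to 50.2 ± 2.37 CPM, -0.35), Fam126b/Ndufb3 (-0.38), Ndufa13/Tssk6 (-0.33) and Ndufs3/Kbtbd4 (-0.32). Another Ndufa13/Tssk6 region (-0.13) and Yjefn3/Ndufa13 (0.76) were not called. Sdha/Ccdc127 (-0.38) stood for complex II, Uqcrq/Gdf9 (-0.23) for complex III, Gm27021/Emc8/Cox4i1 (36.3 ± 1.13 to 27.6 ± 1.6 CPM, -0.40) for complex IV and Haus1/Atp5a1 (-0.36) for ATP synthase. Accessibility at respiratory genes was already known to be lower at day 21 from an earlier analysis of these libraries, so this count is no independent evidence of that direction.

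Mitochondrial ribosome genes had 14 of 41 regions lower (34.1%, and 28.3% at their unmatched single ends) and 0 higher. Their median log2 fold change was -0.18 at shared ends and -0.19 at single ends. The shared regions that fell included Mrps18b/Ppp1r10 (89.0 ± 6.28 to 67.0 ± 3.71 CPM, -0.41), where Ppp1r10 encodes a nuclear regulator of protein phosphatase 1. Mitd1/Mrpl30 (-0.42) and Slc5a3/Mrps6 (-0.40) were further members. Mitochondrial import and chaperone genes had 6 of 23 lower (26.1%), near the share of all shared ends and below the 32.4% at their single ends. The smallest p among them was at Lonp1/Catsperd at the start of the matrix protease gene Lonp1 (42.4 ± 2.64 to 31.1 ± 1.35 CPM, -0.45).

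Genes of RNA metabolism were lower at many shared ends. For aminoacyl tRNA synthetase and tRNA modification genes, 17 of 46 shared regions fell (37%), 0 rose, and the median was -0.17. At the single ends of such genes 5 of 55 fell (9.09%) and 6 rose, but those regions were not matched on CPM and the difference was not tested. Examples were Adat3/Scamp4 (a tRNA deaminase subunit, 29.5 ± 2.08 to 22 ± 0.816 CPM, -0.42), S100pbp/Yars (tyrosyl tRNA synthetase, -0.34) and Srd5a1/Nsun2 (an RNA cytosine methyltransferase, 91.6 ± 1.46 to 74.9 ± 7.67 CPM, -0.29). Splicing and RNA processing genes had 29 of 75 shared regions lower (38.7%) and 5 higher, against 25 lower of 121 at single ends (20.7%), again unmatched and untested. Sart3/Iscu, at a recycling factor of the spliceosome and an iron-sulphur scaffold, fell from 25.2 ± 1.24 to 18.2 ± 0.954 CPM (-0.47). Lsm7/Sppl2b (-0.58), Tfpt/Prpf31 (-0.39) and Hnrnpm/Marchf2 (-0.30) fell as well. Another region at Sart3/Iscu was at -0.073 and was not called. Besides Polg2/Ddx5 and Nfe2l3/Hnrnpa2b1, the gains in this list were Snrnp35/Rilpl1 (0.47), Thoc7/Atxn7 (0.33) and Ppil3/Nif3l1 (0.22).

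**Figure D5:**
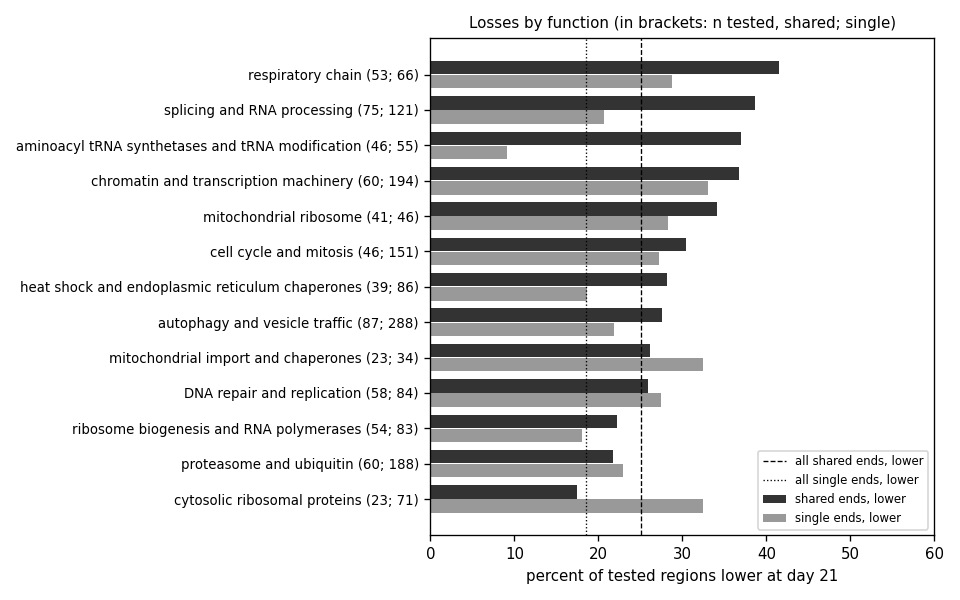
Bars give the percent of tested regions lower at day 21 (x axis) for 13 gene lists, at shared ends (dark) and single ends (grey), with the number of tested regions of each kind in brackets. Lines mark all shared ends (25.1%, dashed) and all single ends (18.5%, dotted), and the respiratory chain list is highest at 41.5%.

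The chromatin and transcription machinery list had 22 of 60 regions lower (36.7%) and 0 higher, near the 33% at their single ends. Ssrp1/Tnks1bp1, at the end of Ssrp1, a subunit of the histone chaperone FACT, fell from 74.7 ± 5.78 to 57.5 ± 2.95 CPM (-0.37). The cell cycle and mitosis list had 14 of 46 lower (30.4%) and 0 higher, against 27.2% at single ends. After Maz/Kif22 and Prc1/Rccd1, these included Cenpt/Thap11 (a kinetochore protein, -0.58), Zfpl1/Cdca5 (the cohesin regulator sororin, -0.36) and Ndc80/Spdya (an outer kinetochore subunit, -0.34). DNA repair and replication genes, a textbook group for bidirectional promoters, had 15 of 58 lower (25.9%), the share of all shared ends, and 0 higher. Rpa1/Smyd4, at the large subunit of the single-strand DNA binding protein RPA, fell from 38.8 ± 3.84 to 28.7 ± 1.84 CPM (-0.43). Recql/Golt1b, a DNA helicase and a Golgi transport protein, fell from 70.8 ± 4.77 to 57.5 ± 2.49 CPM (-0.30). Of 8 regions at replication-dependent histone pairs only H2ac12/H2bc12 fell (-0.26), a call that was lost without any 1 of 4 libraries, with values of -0.20 without day 7 replicate 2, -0.28 without day 7 replicate 4, -0.19 without day 21 replicate 1 and -0.27 without day 21 replicate 4.

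Protein folding and turnover genes fell more often than they rose, as did all shared ends (25.1% lower and 3.63% higher). Heat shock and endoplasmic reticulum chaperone genes had 11 of 39 regions lower (28.2%) and 2 higher, the latter being H2az1/Dnajb14 and Dnaja1/Smu1. The losses included subunits of the cytosolic chaperonin, at Cct5/Atpsckmt (44.4 ± 2.07 to 33.4 ± 2.27 CPM, -0.41), Cct6a/Sumf2 (-0.35) and Tsacc/Cct3 (-0.29), and Hsf1, the heat shock transcription factor, at Bop1/Hsf1 (45.3 ± 1.79 to 35.8 ± 1.15 CPM, -0.34). Proteasome and ubiquitin genes had 13 of 60 lower (21.7%) and 2 higher, Nedd8/Gmpr2 (0.21) and Slc31a1/Cdc26 (0.40). Neither of these 2 gains passed without day 7 replicate 2 or 3 or day 21 replicate 2 or 3 (0.17 to 0.19 and 0.30 to 0.40), and Slc31a1/Cdc26 did not pass without replicate 4 of either day (0.36 and 0.41). Autophagy and vesicle traffic genes had 24 of 87 lower (27.6%) and 1 higher, Lamtor2/Ubqln4 (0.36), where Lamtor2 belongs to the Ragulator complex that anchors mTORC1 at lysosomes. Another region at Lamtor2/Ubqln4 was at -0.21 and was not called. Ribosome biogenesis and RNA polymerase genes had 12 of 54 lower (22.2%), led by Gnl3/Pbrm1 (nucleostemin and a chromatin remodeller subunit, -0.45). Cytosolic ribosomal protein genes had 4 of 23 lower (17.4%), below the 32.4% at their single ends, and 1 higher, Rpl4/Snapc5 (20.3 ± 0.927 to 26.8 ± 2.72 CPM, 0.39).

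Few immune genes stood at shared ends. MHC presentation genes had 12 regions, of which 25% fell, near the 25.1% of all shared ends. Besides the gain at Cd74/Tcof1, 3 of them fell, namely Rfxank/Borcs8/Gm45929 (50.4 ± 4.14 to 38.7 ± 1.19 CPM, -0.38), Tapbpl/Cd27 (38.7 ± 3.18 to 31.1 ± 1.55 CPM, -0.32) and H2-T22/Gm6034 (-0.25). Rfxank encodes a subunit of the RFX factor that binds MHC class II promoters, and Tapbpl a peptide editor of class I. Psmb9/Tap1, the shared promoter of an immunoproteasome subunit and the peptide transporter (chr17:34186896-34187972), was at 49.4, 60, 54.6 and 54.1 CPM at day 7 and at 53.4, 51, 56.7 and 52.2 CPM at day 21. These values overlapped throughout (log2 fold change -0.03 ± 0.07, adjusted p = 0.816, edgeR).

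Interferon response genes had 3 of 11 regions lower (27.3%) and 0 higher. That share was near the 25.1% of all shared ends and the 29.6% at single ends of such genes. Ifit1bl2/Ifit1, whose products bind viral RNA (chr19:34640290-34641090), fell from 10.5, 10.7, 11.8 and 10.4 CPM to 7.76, 7.79, 5.56 and 5.99 CPM, without overlap (log2 fold change -0.69 ± 0.15, adjusted p = 3.03e-04, edgeR). Ifi27l2a/Ifi27 fell from 13.6 ± 0.906 to 9.50 ± 1.59 CPM (-0.53), and Apof/Stat2, at the interferon signal transducer Stat2, by 0.20 on the log2 scale. Dtx3l/Parp9, interferon-induced ubiquitin and ADP-ribose enzymes, did not pass (-0.14 ± 0.11). Of 6 regions at immediate early and stress genes, tail-to-tail Ttc21a/Csrnp1 rose (9.77 ± 2.17 to 15.4 ± 2.05 CPM, 0.64) and Nr4a2/LOC105244150 fell (49 ± 2.99 to 40.1 ± 4.32 CPM, -0.29). Over all shared ends 3.63% rose and 25.1% fell. At single ends of such genes 25 of 72 were higher and 12 lower, unmatched on CPM and untested. Of 2 regions at dendritic cell maturation genes, the weakly accessible one at Tnfrsf4 fell, while Cacnb3/Ddx23 had a log2 fold change of 0.96 and was not called. The 1 region at a cDC1 identity gene, Ppt1/Cap1, was not called. Cd68/Eif4a1, at the start of the macrophage gene Cd68 and the end of a translation initiation factor, rose from 59.2 ± 2.52 to 70.2 ± 9.33 CPM (0.25), but not without day 21 replicate 3 (0.16, adjusted p = 0.107, edgeR). The summed regions of macrophage genes were higher at day 21, but that sum includes this region and is not independent of it.

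Well-known bidirectional pairs moved little. The mitochondrial chaperonin pair Hspd1/Hspe1 (chr1:55087421-55089051) was at 88.1, 93.9, 91.3 and 99.6 CPM at day 7 and at 81.1, 86.7, 79.8 and 83.8 CPM at day 21. The days did not overlap, and the log2 fold change was -0.17 ± 0.06 (adjusted p = 0.0303, edgeR). Brca1/Nbr1, a DNA repair gene and an autophagy receptor, went from 82.7 ± 4.10 to 72.1 ± 4.79 CPM (-0.20, adjusted p = 0.0163). With offsets that follow the abundance of regions, neither passed (-0.08 and -0.12). Hspd1/Hspe1 also lost its call without day 7 replicate 4 (-0.14) or without day 21 replicate 1, 3 or 4 (-0.16, -0.17 and -0.17). Brca1/Nbr1 lost it without day 7 replicate 2 or 3 (-0.17 and -0.19) or day 21 replicate 1 or 4 (-0.16 and -0.18).

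Mrps12/Sars2, a mitochondrial ribosomal protein and the mitochondrial seryl tRNA synthetase, fell from 54.4 ± 3.50 to 44.6 ± 4.09 CPM (-0.28). Its call held in every leave-one-out fit. Wrap53/Trp53 (-0.35), Ndufs1/Eef1b2 (-0.29) and the larger of 2 regions at Fen1/Tmem258 (-0.30) fell at adjusted p values of 0.0413, 0.0123 and 0.0123 (edgeR). Without day 7 replicate 2 they no longer passed, at -0.34, -0.24 and -0.24. Wrap53/Trp53 also failed without day 7 replicate 1 or 4 (-0.37 and -0.28) or day 21 replicate 1, 2 or 4 (-0.35, -0.33 and -0.33), Ndufs1/Eef1b2 without day 7 replicate 3 (-0.25) or day 21 replicate 4 (-0.20), and Fen1/Tmem258 without day 21 replicate 2 (-0.27).

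Ppat/Paics of purine synthesis (-0.12 ± 0.06), Atm/Npat (a DNA damage kinase and a histone gene activator, -0.12 ± 0.06) and Mcm4/Prkdc (a replicative helicase subunit and DNA-dependent protein kinase, -0.06 ± 0.06) did not pass. Neither did Surf1/Surf2 (0.04 ± 0.09) or Tk1/Afmid (0.03 ± 0.17). After Cd74/Tcof1, the most accessible shared ends were LOC108167694/Gm20783 (-0.03 ± 0.05), Khsrp/Slc25a41 (-0.09 ± 0.05), Dcaf6/Mpc2 (-0.08 ± 0.05) and Ubxn6/Hdgfl2 (-0.08 ± 0.05), and none of these 4 passed in edgeR. Their sign depended on the scaling. With offsets that follow the abundance of regions, LOC108167694/Gm20783 was called higher (0.17, adjusted p = 4.38e-04, edgeR), and the other 3 were at 0.08 and did not pass. The last 3 are housekeeping genes of RNA decay, mitochondrial pyruvate import and protein turnover with their neighbours, at 165.0 to 212.9 CPM in the means of the days.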

How the data were processed

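The authors deposited raw counts per region for 8 ATAC-seq libraries, in 1 table of 128057 regions on mm10. Their tools, per the submitters' processing notes, were MACS2 2.1.0.20150603, bedtools, SAMtools, cutadapt 1.9 and Picard 1.65. The aligner, the rule that merged peaks, any shift for the transposase and the counting base of the coordinates are not given in the sources used here. A shift would move counts by a few bases only.

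Genes came from a RefSeq table of GRCm38.p6 (21887 protein-coding genes, 17492 with a strand from their promoter sequence). Counts were tested with edgeR 4.0.16 (R 4.3.3): filterByExpr left 121865 regions, with TMM scaling, glmQLFit and glmQLFTest with day as the only term, and Benjamini-Hochberg adjustment at 0.05. 9 shared-end regions failed the filter. The common biological coefficient of variation was 0.133. CPM values use TMM-scaled totals. For the library measures, log2 CPM (prior count 2) was averaged within 20 quantile bins of mean CPM and tested by exact permutation over 70 relabelings (NumPy 2.4.6). The tests were tried on simulated data.

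Regions named were the 10 gains and 10 losses with the smallest p and no overlap between days (1 region per pair), the 5 largest folds each way, the 5 with the highest CPM, pairs fixed by name and, for each list, up to 2 called regions with the smallest p in each direction. 1 region that this rule chose is not reported here, while all counts include it. Other list members named are examples chosen after their values were seen. The members, pairs and lists were chosen with earlier results of these data known. Of the pairs fixed by name, Surf2/Surf4, Gart/Son and Polr2a/Zbtb4 had no shared-end region, and Ccr7 was at none. Alternatives tried were DESeq2 1.42.0, limma-voom 3.58.1, no filter, trended offsets, thinning, other windows, bins and prior count, matching on width, a replicate block and leaving out each library. Matching on promoter GC was added after seeing the data.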

Additional observations from a re-analysis of the deposited data

Results flagged for a closer look

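In 9 of 164 groups of 4 libraries, 1 library stood apart from the other 3, with a gap to its neighbour that took up more of the group's range than Dixon's 95% critical value allows. Chance gives about 1 in 20 such groups. Day 21 replicate 3 was the high library at Prkaca/Samd1 (45.6 CPM), Ttc21a/Csrnp1 (18.4), Mrps12/Sars2 (50.6) and Fen1/Tmem258 (27.2). Day 7 replicate 2, the shallowest library, was high at Bop1/Hsf1 (48.0 CPM), Usp35/Kctd21 (84.7), H2ac12/H2bc12 (32.6) and Ubxn6/Hdgfl2 (183.0). Day 21 replicate 4, the deepest library, was low at LOC108167694/Gm20783 (248.7 CPM). In 7 of these regions the change was called, and of those the calls at Fen1/Tmem258 and H2ac12/H2bc12 were lost when single libraries were left out.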

How the results depend on the processing

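Of 67 called regions named here, none changed direction under 14 alternatives. Over all 79 named regions, 1033 of 1106 values kept direction and side of the threshold, 57 lost the call, 2 gained it and 14 turned sign, at 20 regions. The sign turned only at regions not called at first. With trended offsets LOC108167694/Gm20783 was called higher (0.17), and Khsrp/Slc25a41, Ubxn6/Hdgfl2 and Dcaf6/Mpc2 (0.08 each), Mcm4/Prkdc (0.03), Psmb9/Tap1 (0.01), Surf1/Surf2 (-0.005) and Tk1/Afmid (-0.009) turned without passing. Thinning turned Surf1/Surf2 (-0.08) and Tk1/Afmid (-0.13). Without 1 library, LOC108167694/Gm20783 ran from -0.06 to 0.008, Psmb9/Tap1 from -0.07 to 0.02 and Tk1/Afmid from -0.06 to 0.15. The number of shared ends that rose was 62, but 39 with windows of 250 bp and 119 with 1000 bp, which take 1372 and 2475 tested regions. Leaving out 1 library gave 45 to 64 gains and 302 to 505 losses. For shared against single starts, thinning gave -0.019 (exact permutation p = 0.0571), windows of 1000 bp -0.006 (p = 0.429) and leaving out 1 library -0.024 to -0.016 (p = 0.0571, the smallest possible there). All other settings run, the replicate block apart, kept p at 0.0286. The share of counts was -0.176 points when taken of gene-end counts (exact permutation p = 0.0857) and -0.534 to -0.423 without 1 library. Shared against single ends ran from -0.016 to -0.001 and passed under none. The cause of these shifts was not tested.

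Whether replicate numbers pair the libraries is not stated in the labels. Deviations of same-numbered libraries correlated at 0.004 to 0.010, and those of differently numbered libraries at -0.011 to 0.013. These values cannot exclude a pairing, since most regions were weak (median 3.07 CPM over all regions) and counting noise there can hide a shared deviation. With the number as a replicate block, 64 shared ends rose and 493 fell. Sign flips over the pairs left -0.020 for shared starts and -0.484 points for the share of counts at p = 0.125, the smallest 4 pairs allow in an exact permutation test, and -0.011 for shared against single ends (p = 0.250). Depth limits the weakest regions, such as Sdf4/Tnfrsf4, where 0.241 CPM at a depth of 16761537 stands for few counts.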
